A study of Mus musculus with 6 samples.

Results

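Transcripts of 10 genes that make, bind, sense and destroy retinoic acid were followed in the E14.5 mouse embryonic bladder, with and without Klf5. The genes were taken as a fixed set by symbol, and all 10 had 1 array feature with a single gene symbol, among 19938 genes measured that way. Controls were Klf5+/+ShhGfpCre+ embryos, with intact Klf5 alleles and a Cre recombinase produced where Shh is expressed. The other embryos were Klf5∆/∆, written here as Klf5-deleted (a deletion of both alleles), and the Cre line that made the deletion is not spelled out in their labels. Each genotype had 3 arrays and each array held total RNA of 2 pooled bladders. The sample source is named urothelium, the lining epithelium, whereas the design and extraction texts name whole bladders. Defining genes of smooth muscle (Acta2), stroma (Col1a1) and urothelium (Upk2) read 14.11, 13.63 and 11.49 on average in the controls (log2), so genes of all these tissues were in the RNA. In such mixed tissue, fewer cells of a type and less RNA per cell cannot be told apart.

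Retinoic acid is made from vitamin A inside tissues and acts on neighbouring cells. Retinol enters cells, is oxidised to retinal and then to retinoic acid, which binds nuclear receptors on DNA; other enzymes return retinal to retinol or inactivate the acid. In many organs the acid is made in mesenchyme and received by epithelium, and vitamin A deficiency is known to turn urothelium squamous. Several pathway genes are themselves induced by retinoic acid.

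The best known DNA element of this response is a direct repeat of 6-base units of the form AGGTCA or AGTTCA or GGGTCA or GGTTCA, with 5 bases between the units, on which a retinoic acid receptor binds with a retinoid X receptor. Promoter windows of 300 bases, from 250 before to 50 after an annotated start, were available for 7 of the 10 genes (12 windows; RefSeq, build GRCm38.p6), and both strands were searched. The repeat was present in 2 windows, those of Rarb and Cyp26a1, and in 0.0974% of all 32851 windows. A difference in response between Rarb and Cyp26a1 was not tested. Their sequences are shown because these genes share the element. Each is written 5′ to 3′ on the strand of its gene, with the repeat in capitals.
Rarb, chr14:16575427-16575726, minus strand: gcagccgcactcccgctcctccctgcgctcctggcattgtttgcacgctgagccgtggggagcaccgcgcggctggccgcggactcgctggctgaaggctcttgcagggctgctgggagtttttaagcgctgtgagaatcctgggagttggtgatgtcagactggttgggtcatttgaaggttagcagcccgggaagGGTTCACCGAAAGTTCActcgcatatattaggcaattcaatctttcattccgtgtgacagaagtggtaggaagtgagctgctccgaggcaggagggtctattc
Cyp26a1, chr19:37697558-37697857, plus strand: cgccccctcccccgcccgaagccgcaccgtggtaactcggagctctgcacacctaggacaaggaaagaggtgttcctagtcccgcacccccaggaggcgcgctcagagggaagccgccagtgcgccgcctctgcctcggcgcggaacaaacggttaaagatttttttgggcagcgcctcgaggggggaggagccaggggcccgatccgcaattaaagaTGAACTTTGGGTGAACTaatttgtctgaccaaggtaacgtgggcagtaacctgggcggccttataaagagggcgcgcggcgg

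The repeat of Rarb lay 53 to 37 bases before the start, reading along the gene, and that of Cyp26a1 lay 32 to 16 bases before it, reading against the gene. Repeats with 1 or 2 bases between the units, which other receptor pairs also use, were in none of the 12 windows and in 0.222% and 0.268% of all windows. A single unit was in 3 of the 12 windows (of Rarb, Cyp26a1 and Stra6), against 43.7% of all windows. A match describes the letters only, and binding was not measured.

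Readings are log2 expression values after RMA, so a difference of 1 is a 2-fold change, and a gene's reading can be compared between arrays but not with another gene's. A gene is said to have risen or fallen where its adjusted p by limma was below 0.05 over all 19938 genes. The labels do not say whether pools came from separate litters. The p-values set each difference against the spread between these pools, which limma moderates over all genes. Part of that spread may be technical, and the number of arrays limits the precision. Klf5, the targeted gene, read 10.12, 10.34 and 10.23 in the Klf5-deleted pools 1 to 3 and 10.84, 10.63 and 10.97 in the control pools, a difference of -0.59 (SE 0.10, adjusted p = 0.0381 by limma). Which exons of Klf5 the feature reads is unknown here, so it may lie outside the deleted part. The call held without control 2 (adjusted p = 0.0167 by limma) and was lost without any other array, at adjusted p of 0.0847 to 0.156 by limma. It was also lost when arrays were centred on their medians or on housekeeping genes (adjusted p of 0.061 and 0.0559 by limma). With the replicate number as a block in the fit it was lost too (adjusted p = 0.137 by limma).

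Control 2 stood apart: its 4 measured placental genes averaged 9.73 against 5.59 to 6.96 on the other 5 arrays, and its 9 yolk sac genes 10.06 against 8.43 to 9.51. Of all genes, 395 (1.98%) passed the threshold, with 77 rises (0.386%) and 318 falls (1.59%); centring arrays on their medians gave 116 rises and 273 falls, and centring on housekeeping genes 139 and 254. The count of 395 became 141, 172 and 253 without Klf5-deleted 1, 2 and 3, and 165 and 261 without control 1 and control 3. Without control 2 it was 349, with 287 of those genes among the 395.

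Of the 10 retinoic acid genes, 2 rose, Aldh1a2 and Crabp2, none fell, and 8 did not pass. The members read higher on the Klf5-deleted side for 9 genes, with a median log2 difference of 0.40, beside a median of -0.01 and 46.5% of genes higher over all genes tested. The groups did not overlap for 5 members, each of them higher in all 3 Klf5-deleted pools: Aldh1a2, Crabp2, Rdh10, Rarb and Stra6. Over all genes 8.67% were higher without overlap and 11.8% lower without overlap. At an unadjusted p under 0.05, 6 members were higher (the 5 and Crabp1), where 6.34% of all genes were. The members were chosen with earlier results of these data known, so these counts describe the set and are not a test of it.

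**Figure D1:**
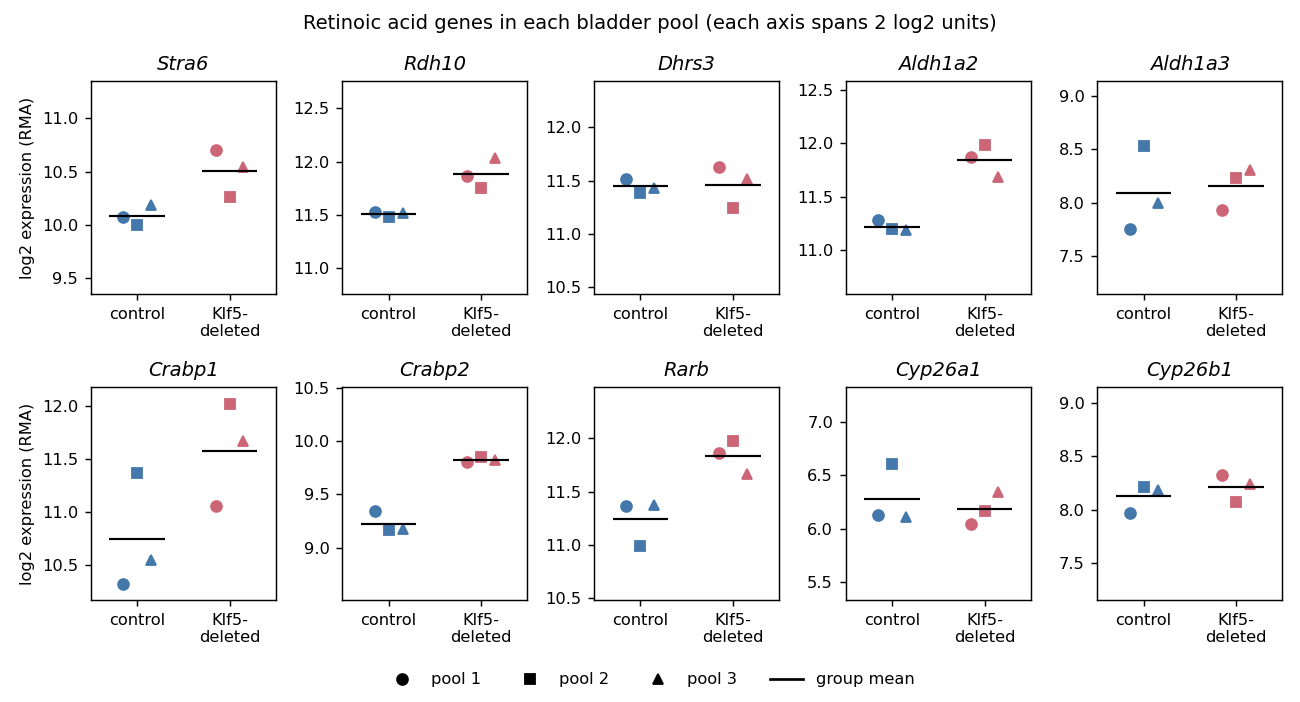
Log2 expression (RMA) of the 10 genes on each array; blue points are control pools, red points Klf5-deleted pools, symbols give the pool number within a genotype (no pairing is implied) and black lines are group means, with each vertical axis spanning 2 log2 units. Aldh1a2, Crabp2, Rdh10, Rarb and Stra6 were higher in all 3 Klf5-deleted pools than in any control pool, while the groups overlapped for the other 5 genes.

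Retinol uptake and the first oxidation were considered first. Stra6, the membrane receptor that takes up retinol from its carrier in blood, read 10.70, 10.26 and 10.54 in the Klf5-deleted pools and 10.08, 9.998 and 10.19 in the controls. The groups were separated by only 0.07, between Klf5-deleted 2 and control 3. The difference was 0.42 (95% interval 0.14 to 0.69, SE 0.12), or 1.33-fold, and did not pass (unadjusted p = 0.00862, adjusted p = 0.156 by limma).

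Rdh10, the enzyme that oxidises retinol to retinal in the embryo, read 11.87, 11.75 and 12.03 in the Klf5-deleted pools against 11.53, 11.48 and 11.52 in the controls. The controls lay close together (SD 0.03, n = 3) and the Klf5-deleted pools spread more widely (SD 0.14, n = 3), with a gap of 0.22 between the groups. The difference of 0.38 (SE 0.08), or 1.30-fold, had an unadjusted p of 0.00233 and an adjusted p of 0.0801 by limma, and did not pass. With an intensity trend and robust variance in limma the adjusted p was 0.0456.

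Dhrs3 codes for the enzyme that returns retinal to retinol. It read 11.63, 11.24 and 11.52 in the Klf5-deleted pools and 11.52, 11.39 and 11.43 in the controls, so the control readings lay inside the range of the Klf5-deleted ones. The difference was 0.02 with a 95% interval of -0.23 to 0.26 (adjusted p = 0.968 by limma), which does not show that the groups were equal.

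The second oxidation, from retinal to retinoic acid, is carried out by Aldh1a2 and Aldh1a3. Aldh1a2, the main such enzyme of embryonic mesenchyme, read 11.87, 11.99 and 11.68 in the Klf5-deleted pools and 11.28, 11.19 and 11.18 in the controls. Every Klf5-deleted pool was at least 0.40 above the highest control, and the group means were 11.85 ± 0.15 (SD, n = 3) and 11.22 ± 0.06 (SD, n = 3). The rise was 0.63 (95% interval 0.42 to 0.84, SE 0.09), or 1.54-fold, with an adjusted p of 0.0173 by limma, and it ranked 104 among the signed differences of 19938 genes. The call was lost without Klf5-deleted 1 (adjusted p = 0.0909 by limma), Klf5-deleted 2 (0.0552), control 1 (0.0566) or control 3 (0.0646), and when all 35557 features were tested (0.056). It held without control 2 (0.041) and without Klf5-deleted 3 (0.0198), and the difference stayed between 0.56 and 0.71 whichever array was left out.

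Aldh1a3, a paralog known from developing epithelia, read 7.93, 8.23 and 8.31 in the Klf5-deleted pools and 7.75, 8.53 and 7.995 in the controls. Control 2, the array with the highest means of placental and yolk sac genes, gave the highest of the 6 readings. The difference was 0.06 (95% interval -0.40 to 0.53, adjusted p = 0.931 by limma), and it ranged from -0.11 without control 1 to 0.28 without control 2. The difference of Aldh1a2 exceeded that of Aldh1a3 by 0.56 (SE 0.30), with overlapping groups and a p of 0.2 (0.6 adjusted over 3 pairs) in a two-sided exact permutation test whose smallest possible p is 0.1. A difference between the responses of these paralogs was not detectable with 3 arrays per group.

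Crabp1 and Crabp2 bind retinoic acid in the cytoplasm. Crabp2, which is known to hand the acid to nuclear receptors, read 9.81, 9.85 and 9.82 in the Klf5-deleted pools and 9.34, 9.16 and 9.17 in the controls. The Klf5-deleted pools lay close together, and the gap between the groups was 0.47, the widest among the 10 genes. The means were 9.82 ± 0.02 (SD, n = 3) and 9.22 ± 0.10 (SD, n = 3), a rise of 0.60 (95% interval 0.43 to 0.77, SE 0.07) or 1.52-fold, with an adjusted p of 0.00826 by limma. Crabp2 passed whichever array was left out, with differences of 0.57 to 0.66 and adjusted p of 0.0142 to 0.0478 by limma.

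Crabp1, which is linked to breakdown of the acid, had the largest difference among the members and the least certain one. It read 11.05, 12.02 and 11.66 in the Klf5-deleted pools and 10.33, 11.37 and 10.55 in the controls, so control 2 exceeded Klf5-deleted 1. The difference was 0.83 (95% interval 0.09 to 1.57, SE 0.32), or 1.78-fold, with an unadjusted p of 0.0325 and an adjusted p of 0.29 by limma. It ranked 42 among the signed differences of 19938 genes, and its control SD of 0.55 exceeded that of 98.5% of genes. Without control 2 the groups no longer overlapped and the difference was 1.14 (adjusted p = 0.0907 by limma). The difference of Crabp2 minus that of Crabp1 was -0.23 (SE 0.45; two-sided exact permutation p = 0.8, adjusted over 3 pairs 0.8), so a difference between the paralogs was not detectable with these arrays, and its sign turned without control 1 (0.03).

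Receptor readings came next. Rarb codes for a retinoic acid receptor whose own gene is a classical target of the acid through the repeat printed above. It read 11.87, 11.97 and 11.67 in the Klf5-deleted pools and 11.37, 10.99 and 11.38 in the controls. The groups were 0.29 apart, and control 2 was the lowest array. The difference of 0.59 (95% interval 0.29 to 0.89, SE 0.13), or 1.51-fold, was close in size to those of Aldh1a2 and Crabp2, but the controls varied more (SD 0.22, n = 3) and it did not pass (unadjusted p = 0.00204, adjusted p = 0.0745 by limma). It passed with arrays centred on housekeeping genes (0.0463) or with an intensity trend and robust variance (0.0438); without control 2 the difference was 0.47 (adjusted p = 0.094 by limma).

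Cyp26a1 and Cyp26b1 code for cytochromes that inactivate retinoic acid. Cyp26a1, which carries the same kind of repeat as Rarb and is known to respond strongly to the acid, read 6.05, 6.17 and 6.34 in the Klf5-deleted pools and 6.12, 6.61 and 6.11 in the controls. It was the only member with a lower Klf5-deleted mean, by -0.09 (95% interval -0.44 to 0.25, adjusted p = 0.843 by limma), and control 2 was its highest array. Without control 2 the difference was 0.07. No detection calls were used, so whether Cyp26a1 was above background cannot be said, and RMA is known to compress differences of dim features.

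Cyp26b1, the paralog found in many embryonic mesenchymes, read 8.33, 8.07 and 8.24 in the Klf5-deleted pools and 7.97, 8.22 and 8.19 in the controls, and the groups overlapped. The difference was 0.09 (95% interval -0.14 to 0.32, adjusted p = 0.743 by limma). The difference of Cyp26b1 exceeded that of Cyp26a1 by 0.18 (SE 0.19; two-sided exact permutation p = 0.4, adjusted over 3 pairs 0.6).

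**Figure D2:**
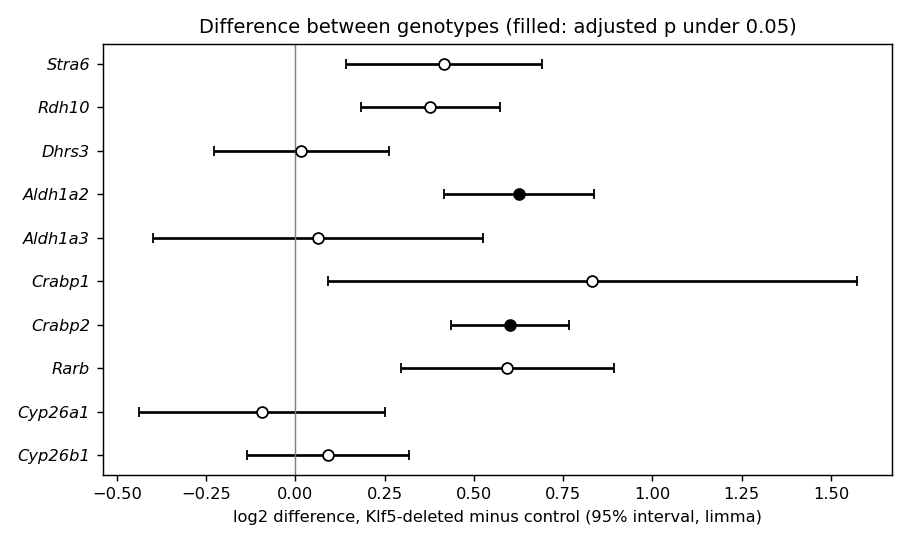
Log2 difference (Klf5-deleted minus control, horizontal axis) of the 10 genes with 95% intervals from limma, ordered by role from uptake through synthesis, binding and receptor to breakdown; filled points have an adjusted p under 0.05. The filled points are Aldh1a2 at 0.63 and Crabp2 at 0.60, the interval of Crabp1 is the widest (0.09 to 1.57), and the intervals of Dhrs3, Aldh1a3, Cyp26a1 and Cyp26b1 include 0.

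By role, the uptake receptor and the first oxidising enzyme differed by 0.42 and 0.38, the second oxidising enzymes by 0.63 and 0.06, the binding proteins by 0.83 and 0.60 and the receptor by 0.59. The 3 enzymes that remove retinal or the acid differed by 0.02, -0.09 and 0.09. Whether the roles differed from each other was not tested.

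Further retinoid genes measured on the arrays numbered 50. Among them, 1 rose, 1 fell and 48 did not pass, where 1.98% of all genes passed. The median difference was -0.03, and 22 were higher and 28 lower, or 44% higher beside 46.5% of all genes. The split turned with the scaling, to 27 higher and 23 lower with arrays centred on their medians and 29 and 21 on housekeeping genes, while the 10 members kept 9 higher and 1 lower under both. Among 25 further enzymes of retinoid metabolism, Adh1, an alcohol dehydrogenase able to oxidise retinol, fell. It read 8.50, 9.29 and 8.99 in the Klf5-deleted pools and 12.28, 11.03 and 11.21 in the controls, a difference of -2.58 (SE 0.34, adjusted p = 0.0125 by limma). The call on Adh1 was lost without Klf5-deleted 1 (adjusted p = 0.0608 by limma) and with an intensity trend and robust variance (0.0595). It was also lost with the replicate number as a block in the fit (adjusted p = 0.0872 by limma).

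The other enzymes did not pass. Lrat, which stores retinol as esters, read 9.08, 10.37 and 10.62 in the Klf5-deleted pools and 10.12, 8.21 and 9.58 in the controls, so its difference of 0.72 had an SE of 0.55. Cyp1b1, a cytochrome able to oxidise retinol, had a difference of 0.33 (SE 0.12; limma adjusted p = 0.287). Dhrs9, a retinol dehydrogenase, had one of -0.33 (SE 0.18), with control 2 highest at 6.87. Aldh1a1, a further paralog that makes retinoic acid, read 7.10 to 7.18 in the Klf5-deleted pools and 7.06, 7.82 and 7.16 in the controls, a difference of -0.20 (SE 0.18).

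Among 12 measured carriers and receptors, Rxrg, a retinoid X receptor, rose. It read 7.73, 8.23 and 8.39 in the Klf5-deleted pools and 6.91, 7.37 and 7.08 in the controls, a rise of 1.00 (SE 0.18, adjusted p = 0.0456 by limma). The call was lost without Klf5-deleted 2 (adjusted p = 0.166 by limma), Klf5-deleted 3 (0.106), control 1 (0.164) or control 3 (0.126). It was also lost with array weights (adjusted p = 0.0622 by limma) and with the replicate number as a block (0.0535). The receptors Rara and Rarg differed by 0.05 (SE 0.10) and -0.08 (SE 0.07), and Rxra by -0.21 (SE 0.08, adjusted p = 0.286 by limma). The retinol carrier Rbp2 differed by -0.18 (SE 0.18), and Ttr, which carries retinol-binding protein in blood and is made in yolk sac, by -0.77 (SE 0.45), with control 2 highest at 11.29.

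Genes known to respond to retinoic acid in other settings did not pass: 0 of 13 by limma, with 2 at an unadjusted p under 0.05, Meis1 and Meis2. With 1.98% of all genes past the threshold, a count of 0 among 13 is near that background and says nothing particular of these genes. Meis1 and Meis2, homeobox genes downstream of the acid in limb and other tissues, were higher in all 3 Klf5-deleted pools than in any control, at 12.44 to 12.66 against 12.11 to 12.39 for Meis1 and 13.26 to 13.38 against 13.02 to 13.14 for Meis2. Meis1 differed by 0.29 (SE 0.10) and Meis2 by 0.21 (SE 0.07), and limma gave adjusted p of 0.246 and 0.207. Rarres2, a chemoattractant gene induced by retinoids, differed by -0.36 (SE 0.30), and Bhlhe40, a transcription repressor, by -0.25 (SE 0.12). Over the 13 genes 3 were higher without overlap and 0 lower, beside 8.67% and 11.8% of all genes, and the median was 0.02.

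The repeat with 5 bases between units was in promoter windows of 31 genes, of which 11 were measured, 9 of them outside the 10 members. Of these 9, 1 rose, where 0.386% of all genes did. It was Tnfsf13b, which codes for a B-cell survival cytokine and was named after its values were seen. Of the 9 genes, 4 were higher and 5 lower, where 46.5% of all genes were higher. Their differences ran from -0.50 to 1.09 with a median of -0.07. Tnfsf13b read 9.04 to 9.09 in the Klf5-deleted pools and 8.18 to 8.56 in the controls (difference 0.74, SE 0.10, adjusted p = 0.016 by limma). Its call held without control 2 (0.00206) and was lost without any other array, at adjusted p of 0.0549 to 0.0858 by limma. The call was also lost with the replicate number as a block in the fit (adjusted p = 0.075 by limma).

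Marker genes of the cell types in a bladder were read on the same arrays. All 15 urothelial markers were lower, 10 of them past the threshold, and their mean per array was 9.24 to 9.50 in Klf5-deleted and 10.66 to 10.92 in control pools. All 10 smooth muscle markers were lower (9 of 10 under either centring), with Synpo2 past the threshold (adjusted p = 0.0457 by limma, and 0.0756 to 0.181 when any 1 array was left out), and their means were 11.81 to 12.01 and 12.04 to 12.33. Of 15 stromal markers 4 were higher (5 and 7 with arrays centred on medians and on housekeeping genes) and 0 passed by limma, and the means of 12.19 to 12.32 and 12.27 to 12.43 overlapped. Pdgfra and Tbx18, mesenchymal genes, were the stromal markers higher without overlap, by 0.28 (SE 0.07) and 0.75 (SE 0.15); limma gave adjusted p of 0.13 and 0.0568. Lum, a matrix proteoglycan gene, and Gli1 and Ptch1, targets of hedgehog signalling, were lower without overlap, by -0.63, -0.35 and -0.35, and did not pass either. The part of these cell types in the rises of Aldh1a2 and Crabp2 was not tested.

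Mesothelium, the outer covering of the bladder, is a known site of Aldh1a2 and Wt1 expression. Among 8 mesothelial markers 5 were higher, Wt1 rose by 0.54 (SE 0.10, adjusted p = 0.0409 by limma), and Msln and the shared epithelial gene Krt19 fell, with differences of -1.42 and -1.46. Wt1 passed without control 2 (0.0102) and in none of the other 5 fits that left out an array (adjusted p 0.102 to 0.147 by limma). The mean per array was 9.59 to 9.78 in Klf5-deleted and 9.71 to 9.98 in control pools, which overlapped. Over the 8 markers the mean difference was -0.15, whereas the median difference was 0.25. The part of mesothelium in the rise of Aldh1a2 was not tested. All 10 skeletal muscle markers were higher and 0 passed, with means of 9.38 to 10.37 against 8.87 to 9.72 that overlapped through control 2. Control 2 was also the control with the highest Crabp1, at 11.37. It had the highest control means of neurons and glia (9.14), leukocytes (9.38) and erythroid cells (11.76) as well. The part of skeletal muscle or of any other cell type in the readings of Crabp1 was not tested.

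**Figure D3:**
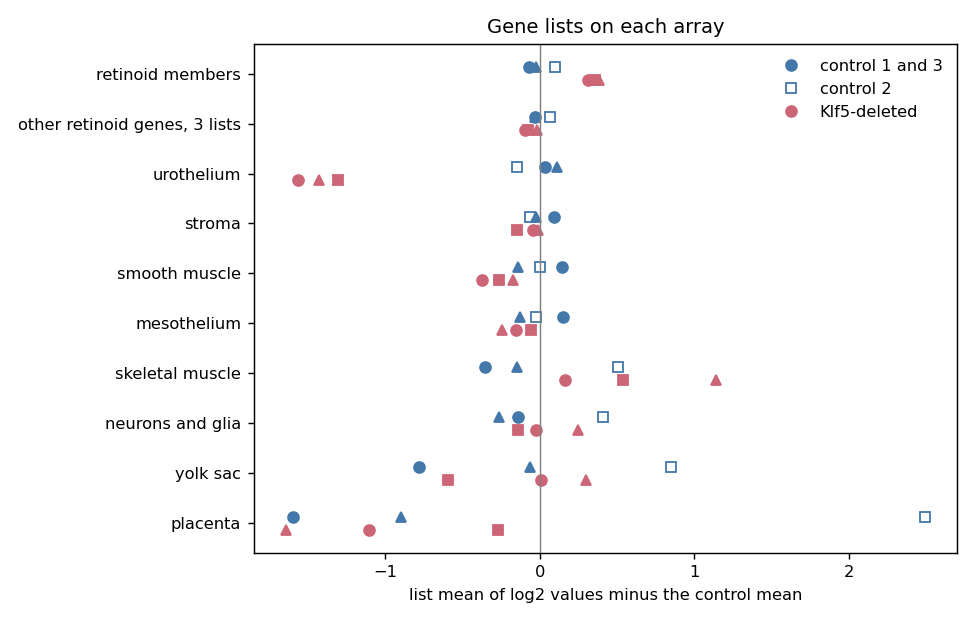
Mean log2 value of each gene list on each array, minus the mean of the 3 control arrays (horizontal axis); blue is control, with control 2 as an open square, and red is Klf5-deleted. The 10 retinoic acid genes averaged 10.11 to 10.18 on the Klf5-deleted arrays and 9.73 to 9.89 on the controls. The means of the 50 other retinoid genes overlapped. The mean of the urothelial markers was lower on every Klf5-deleted array than on any control, and control 2 stood apart for placental genes.

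The genes most like Aldh1a2 and Crabp2 over the 6 arrays were found by the root-mean-square difference between readings centred on each gene's mean. For Aldh1a2 they were St8sia1, a sialyltransferase gene, at 0.048, Cdh9, a cadherin gene, at 0.057, and Alkal2, which codes for a receptor ligand, at 0.062 log2 units. St8sia1 read 8.40, 8.58 and 8.23 in the Klf5-deleted pools and 7.92, 7.78 and 7.86 in the controls, with Klf5-deleted 2 highest and Klf5-deleted 3 lowest of its group, the order also seen in Aldh1a2. For Crabp2 they were Snord85, a small nucleolar RNA gene, at 0.043, Rragb, a GTPase gene of nutrient sensing, at 0.049, and Tmem35a, which codes for a receptor chaperone, at 0.071. With 6 arrays and 19938 genes, such closeness only describes these arrays.

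**Figure D4:**
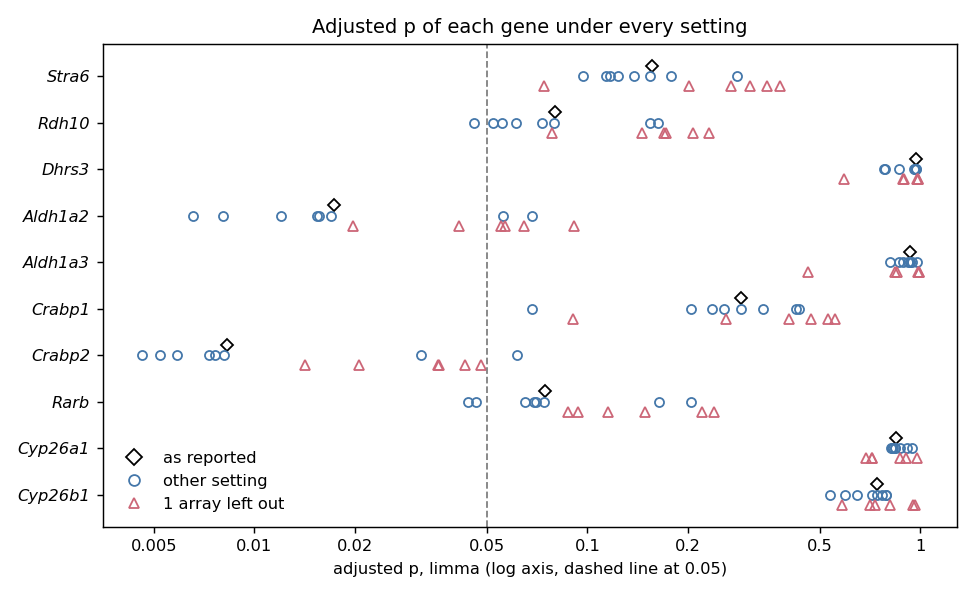
Adjusted p by limma (log axis, dashed line at 0.05) of each gene as reported (diamond), under 8 other settings (circles) and with each of the 6 arrays left out (triangles). Crabp2 passed in 13 of 14 alternatives, Aldh1a2 in 8, Rarb in 2, Rdh10 in 1 and the other 6 genes in none. The alternatives are not independent, and the mean of all features repeats the reported readings of these genes.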

How the data were processed

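RNA of 6 pools (3 per genotype) was read on 6 Affymetrix arrays (Mouse Gene 1.0 ST). The deposited log2 values were made by the authors with RMA, per the submitters' processing notes. The RMA version and genome build are not given in these sources, and the log2 scale was read from the value range (3.24 to 14.6). Of 35557 features, 21789 had a single gene symbol in the platform annotation, 1621 had several and 12147 had none. The feature with the highest mean stood for each of 19938 genes. Genotypes were compared by lmFit and eBayes without covariates (limma 3.58.1, R 4.3.3) and Benjamini-Hochberg adjustment over all genes, with a threshold of 0.05; the fit was tested on simulated data. Paralogs were compared by exact permutation.

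Named were Klf5, the 10 members, each other retinoid gene past the threshold, the 4 largest differences per retinoid list, 3 likest genes per called member and up to 3 markers per list; Aldh1a1, Rara, Rarg, Tnfsf13b, Prokr2, Lum, Gli1 and Ptch1 were added after their values were seen. Members and lists were chosen with earlier results of these data known. Marker lists not described further in the text (endothelium, leukocytes, neurons and glia, nephric duct, erythroid cells) had 0 genes past the threshold by limma.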

Additional observations from a re-analysis of the deposited data

How the results depend on the processing

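The genes past the threshold numbered 395 as reported and 141 to 349 with 1 array left out. When all 35557 features were tested, 218 features passed, a count of features and not of genes. Members past the threshold numbered 2 as reported, 4 with an intensity trend and robust variance, 1 when every feature was tested and 1 to 2 with 1 array left out. With the replicate number as a replicate block, 110 genes (107 of them among the 395) and 0 members passed by limma, with Crabp2 at an adjusted p of 0.0614 and Aldh1a2 at 0.0681. Crabp1 also had an adjusted p of 0.0681 by limma there, with an SE of 0.11 against 0.32 as reported. Wt1 and Synpo2 did not pass there either, at adjusted p of 0.0749 and 0.154 by limma. Deviations of same-numbered arrays correlated at 0.0092 to 0.0787, and those of differently numbered arrays at -0.0533 to 0.011. All of these were weak, so the numbers were not taken to pair pools. With 1 array left out, sign turned for Dhrs3 (-0.065 to 0.126), Aldh1a3 (-0.11 to 0.28), Cyp26a1 (-0.18 to 0.0705) and Crabp2 minus Crabp1 (-0.57 to 0.0349); the cause was not tested. Of 140 member values over 14 alternatives, 124 kept direction and side of the threshold, 7 lost the call, 3 gained it and 6 turned sign. Several settings changed only the variance or the genes tested and left every member's difference as reported, so sign could not turn there. The mean of all features repeats the reported readings of the members, which have 1 feature each. These counts are therefore not a measure of stability. No detection calls were used, so signal over background limits the dim genes.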

Other observations

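Prokr2, a prokineticin receptor gene with the 5-base-spaced repeat in a promoter window, was named after its values were seen. It read 8.78, 8.77 and 9.89 in the Klf5-deleted pools and 7.87, 8.38 and 7.93 in the controls, a difference of 1.09 (SE 0.30) that did not pass (adjusted p = 0.151 by limma).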
